A study of Mus musculus with 12 samples.

Results

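The 9 genes Gpx1, Gpx3, Gpx4, Selenop, Selenow, Selenof, Dio1, Txnrd2 and Msrb1 encode selenoproteins, and they were followed in the livers of mice on a control and an iron-loaded diet. They were chosen by name as glutathione peroxidases and other selenoproteins of the liver, with earlier results of these data known. All 9 were among the 27022 genes in the deposited count table. All 9 carry at least 1 selenocysteine codon in the GENCODE M21 annotation of GRCm38, which marks 24 such genes, of which 22 are listed in the table. Of the 9 genes, 4 passed the test for a difference between diets with the whole transcript kit and 3 with the 3′ kit, and all of these were lower on the iron-loaded diet. Dio1 differed most, at 6.42-fold lower with the whole transcript kit and 7.04-fold lower with the 3′ kit.

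Selenoproteins contain selenocysteine, an amino acid with selenium in place of the sulfur of cysteine, and in most of them it sits in the active site of a redox enzyme. It is inserted at a TGA codon, which elsewhere ends translation, with the help of a hairpin in the mRNA after the coding sequence, a binding protein and a dedicated elongation factor. The liver takes up selenium from the diet and exports it to other tissues in selenoprotein P, the product of Selenop. Glutathione peroxidases reduce hydrogen peroxide and lipid peroxides, and iron feeds the formation of radicals from such peroxides.

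Liver RNA came from 6 female SJL/J mice, 3 per diet, which were perfused and collected at 11 weeks of age. All were given a control diet with 50 ppm iron at 3 weeks, and from 6 weeks the iron-loaded mice received a diet with 2% carbonyl iron, with the mice of a diet in 1 cage, and the effects of diet and cage cannot be told apart. Each RNA gave 1 whole transcript library (KAPA Stranded mRNA-Seq, Trad-KAPA) and 1 library of 3′ ends (Lexogen QuantSeq 3′ mRNA-Seq FWD, 3’-LEXO), so that 12 libraries form 4 groups of 3. Trad-KAPA libraries held 13834682 to 16553616 counts and 3’-LEXO libraries 10724672 to 14104236. In both kits iron-loaded mouse 1 stood apart from iron-loaded mice 2 and 3. The chi-square of counts per degree of freedom between it and these mice was 49.5 to 59.8, against at most 5.98 between mice 2 and 3. Pairs of control mice had 18.5 to 19.9 in Trad-KAPA and 25.8 to 35.9 in 3’-LEXO. Fold changes that rest on iron-loaded mouse 1 are given with and without it. Liver genes of the response to iron differed between the diets: Hamp, which encodes the iron hormone hepcidin, was 5.79-fold higher on the iron-loaded diet in 3’-LEXO (adjusted p = 0.0425, edgeR) and 5.14-fold higher in Trad-KAPA without passing the test (adjusted p = 0.0667). Atoh8 and Smad7, targets of the same pathway of iron sensing, rose in both kits, and Hamp2, a close copy of Hamp, fell in both. Bmp6 and Id1 rose in Trad-KAPA. In 3’-LEXO Bmp6 had too few reads to be tested, and Id1 was higher at an unadjusted p under 0.05 (edgeR) without passing the test. The hepatocyte markers Alb, Ttr, Apoa1 and Cyp2e1 were summed in CPM (counts scaled to the total of the library). In Trad-KAPA they held 136027 to 149070 CPM in the control mice and 109093 to 150633 CPM in the iron-loaded mice, with medians of 143927 and 146077 CPM. In 3’-LEXO these were 52758 to 68415 CPM and 43313 to 63245 CPM, with medians of 59356 and 61579 CPM. The lowest iron-loaded library thus lay below every control library in both kits. Of these 4 genes, 0 passed the test of diet in either kit with edgeR or DESeq2, with 1 at an unadjusted p under 0.05 in 3’-LEXO and 0 in Trad-KAPA.

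The coding sequences around the selenocysteine codons are shown because a TGA that is not read as selenocysteine reads as a stop. Each line gives 12 bases before the codon and up to 12 after it, 5′ to 3′ on the coding strand, with the TGA in capitals, taken from the M21 transcripts of GRCm38. For each gene the transcript with the most annotated selenocysteine codons, and among these the longest coding sequence, was used. Codon numbers may differ in other transcripts, and which of them the liver expresses was not tested. Of Selenop, which has 10 such codons, the first and the last are shown.
Dio1, codon 126 of 257, chr4:107297700-107297702: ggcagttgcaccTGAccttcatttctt
Selenow, codon 13 of 88, chr7:15920464-15920466: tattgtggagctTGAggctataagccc
Gpx1, codon 47 of 201, chr9:108339451-108339453: gtcgcgtctctcTGAggcaccacgatc
Txnrd2, codon 526 of 527, chr16:18477772-18477774: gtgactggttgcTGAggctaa
Msrb1, codon 95 of 116, chr17:24740158-24740160: caatcaagattcTGAatatttagcagc
Selenop first, codon 59 of 380, chr15:3274848-3274850: cttcaagccagcTGAtacttgtgtctt
Selenop last, codon 377 of 380, chr15:3279696-3279698: aggaagtgaaaaTGAcattcaaactaa
Selenof, codon 93 of 162, chr3:144590645-144590647: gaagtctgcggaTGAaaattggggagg
Gpx4, codon 129 of 253, chr10:80054737-80054739: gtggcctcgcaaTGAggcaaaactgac
Gpx3, codon 73 of 226, chr11:54907256-54907258: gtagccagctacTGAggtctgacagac

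The 9 genes differ in where the codon lies. In Gpx1, Gpx3 and Gpx4 it lies in the first part or near the middle of the coding sequence, and Txnrd2 has it as the last codon but 1, before the stop. Selenow is the gene among them whose stop codon is also TGA. Of the 10 codons of Selenop, 1 lies in exon 2 and the other 9 in its last exon, exon 5. In all 9 genes the codon, or the first of them in Selenop, lies before the last exon junction of the transcript. It lay 303 bases before the last junction in Dio1, 243 in Selenow, 105 in Gpx1 and 83 in Txnrd2, the 4 genes that fell in Trad-KAPA. Among the other genes it lay 34 bases before it in Msrb1, 78 in Selenof, 240 in Gpx3, 342 in Gpx4 and 357 in Selenop for its first codon. The ranges overlapped, and a link of this distance to the diet effect was not tested.

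**Figure D1:**
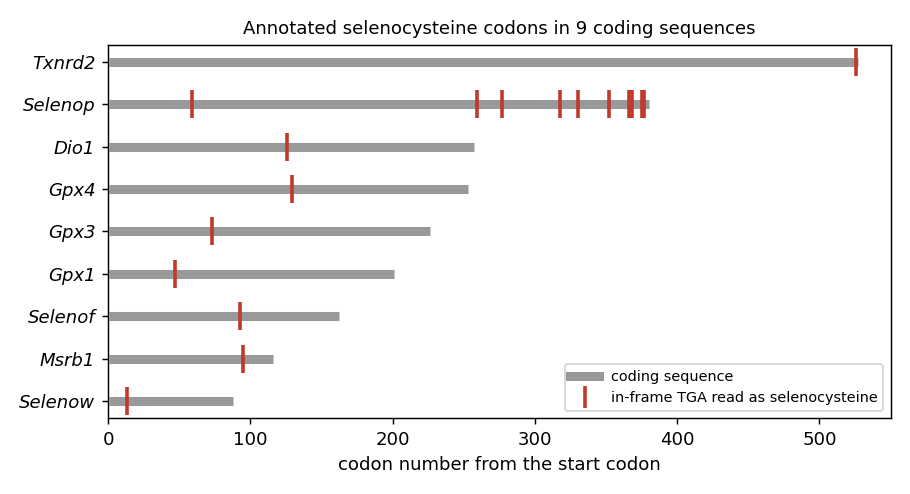
Position of the annotated selenocysteine codons (red marks) along the coding sequence (grey bars) of the 9 genes, in transcripts chosen as above. The x axis gives the codon number counted from the start codon. Selenop has 10 marks, 9 of them in the later part of the bar, and the others have 1 each, which in Txnrd2 is codon 526 of 527.

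To see how abundant the 9 mRNAs were, levels were compared between genes per length, as the count per kilobase of merged exons scaled to the library total (RPKM), in Trad-KAPA alone, since 3’-LEXO reads come from the 3′ end and do not scale with length. On the control diet Selenop had the highest level, at 2518 ± 109 RPKM (SD, n = 3), followed by Gpx1 at 735 ± 102 RPKM and Msrb1 at 192 ± 24.5 RPKM. Selenow followed at 71.1 ± 2.21 RPKM, Dio1 at 28.7 ± 1.73 RPKM, Selenof at 17.8 ± 1.07 RPKM, Gpx4 at 11.2 ± 1.43 RPKM, Txnrd2 at 7.71 ± 0.36 RPKM and Gpx3 at 3.66 ± 0.23 RPKM. Libraries of neighbours in this order did not overlap. The place of Gpx4 is uncertain all the same. Of the stretches of 50 bases in its transcripts, 34.7% also occur in other genes, and reads from them may not map uniquely. Among the 12431 genes with a mean of at least 1 CPM in Trad-KAPA, ranked by RPKM, Selenop was the 20th, Gpx1 the 68th and Msrb1 the 218th.

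On the iron-loaded diet Selenop, Gpx1, Msrb1 and Selenow kept the first 4 places, at 2365 ± 101, 324 ± 46.3, 140 ± 26.7 and 27.5 ± 1.96 RPKM (SD, n = 3). Dio1 moved from place 5 to the last, at 4.66 ± 1.81 RPKM, where its libraries overlapped with those of Txnrd2 at 5.01 ± 0.23 RPKM, which in turn overlapped with Gpx3 at 5.53 ± 2.01 RPKM. With the length of the longest transcript in place of the merged exons, Selenof, at 38.3 ± 2.31 RPKM, stood above Dio1, at 33.5 ± 2.02 RPKM, on the control diet, and above Selenow on the iron-loaded diet.

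The question of the diet was asked within each kit, with 3 iron-loaded against 3 control libraries. In Trad-KAPA, 4 of the 9 genes fell on the iron-loaded diet and 0 rose, where of all 13151 genes tested 8.37% fell, 8.77% rose and 17.1% passed the test in either direction (edgeR's quasi-likelihood test, Benjamini-Hochberg adjusted p under 0.05). In 3’-LEXO, 3 of 9 fell and 0 rose, where of 13301 genes 2.92% fell, 3.17% rose and 6.1% passed in either direction. DESeq2 called 4 of the 9 lower and 0 higher in each kit. Since the 9 were chosen with earlier results of these data known, their shares beside those of all genes are a description. At an unadjusted p under 0.05 there were 6 of the 9 in Trad-KAPA, against 34.3% of all genes, and 7 in 3’-LEXO, against 25.0%. The 3 genes Dio1, Selenow and Gpx1 fell in both kits, as did 2.55% of the 12229 genes tested in both, while 0 of the 9 and 2.67% of all rose in both. The median log2 fold change of the 9 genes was -0.52 in each kit, and over all genes tested it was 0.02 and 0.01, respectively. The groups of 3 did not overlap for 7 of the 9 genes in each kit, 5 of them lower and 2 higher on the iron-loaded diet. Of all genes in Trad-KAPA 16.6% were lower and 24.7% higher without overlap, or 41.2% together, and in 3’-LEXO these were 12.8%, 18.5% and 31.3%. The libraries of the 2 kits were made from the same RNA, so that the kits repeat the measurement and not the animals.

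**Figure D2:**
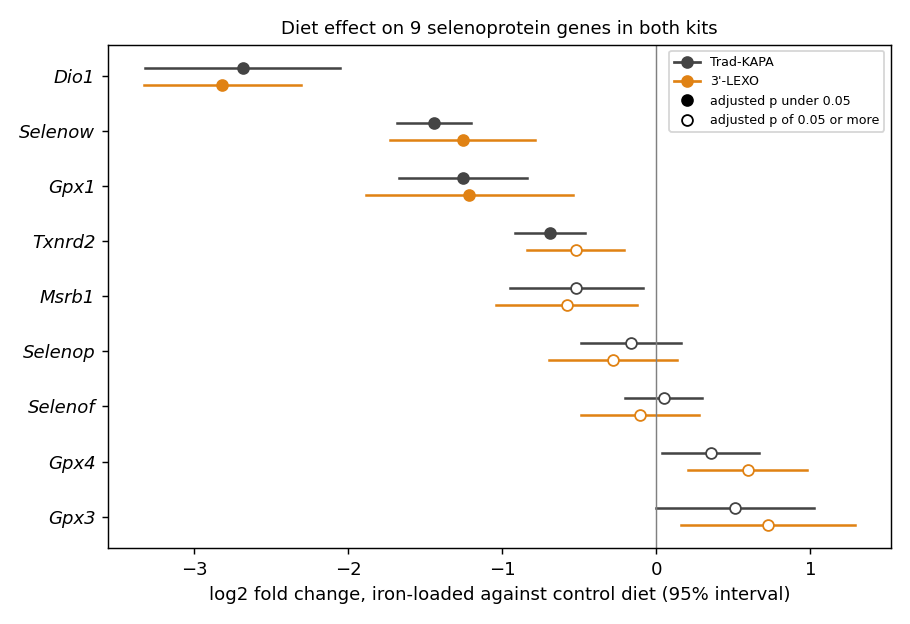
Log2 fold change of the iron-loaded against the control diet on the x axis for the 9 genes, with 95% intervals, in Trad-KAPA (dark) and 3’-LEXO (orange). Filled points passed the adjusted p threshold of 0.05, which are 4 of the dark and 3 of the orange points, all below 0.

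Dio1 encodes the deiodinase of the liver that turns thyroxine into the active thyroid hormone triiodothyronine, and it lies on chromosome 4 from 107291465 to 107307169. With Trad-KAPA it had 52.8, 59.3 and 57.8 CPM in control mice 1, 2 and 3 and 5.07, 11.3 and 11.2 CPM in iron-loaded mice 1, 2 and 3. In 3’-LEXO these were 72.5, 101 and 84.9 CPM and 9.13, 15.9 and 13.1 CPM. Every iron-loaded library was far below every control library in both kits, and iron-loaded mouse 1 was the lowest in both. Its log2 fold change was -2.68 ± 0.28 (SE) in Trad-KAPA (adjusted p = 0.00172, edgeR) and -2.82 ± 0.23 in 3’-LEXO (adjusted p = 0.000575, edgeR). Without iron-loaded mouse 1 it was -2.37 ± 0.11 and -2.61 ± 0.18, and Dio1 passed the test in both kits.

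Selenow encodes selenoprotein W, a small thioredoxin-like protein, and lies on chromosome 7 from 15917208 to 15922402. It had 50.6, 53.9 and 52.5 CPM in the control mice and 20.7, 21.4 and 18.6 CPM in the iron-loaded mice in Trad-KAPA. The 3’-LEXO values were 10.9, 10.9 and 11.0 CPM against 3.60, 5.41 and 5.27 CPM, from only 47 to 155 counts per library. The groups lay apart in both kits, and iron-loaded mouse 1 was the lowest in 3’-LEXO but not in Trad-KAPA. Selenow fell by 2.71-fold in Trad-KAPA (log2 fold change -1.44 ± 0.10, adjusted p = 0.000598, edgeR) and by 2.39-fold in 3’-LEXO (-1.26 ± 0.21, adjusted p = 0.0114, edgeR). Without iron-loaded mouse 1 the log2 fold changes were -1.42 and -1.07, and both passed. Leaving out control mouse 3 ended the call in 3’-LEXO (log2 fold change -1.23, adjusted p = 0.0553).

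Gpx1 encodes the most abundant glutathione peroxidase of the liver, an enzyme of the cytosol and mitochondria, and lies on chromosome 9 from 108338903 to 108340343. In Trad-KAPA the control mice had 986, 962 and 1228 CPM and the iron-loaded mice 391, 492 and 516 CPM. In 3’-LEXO the control mice had 6279, 3632 and 6428 CPM and the iron-loaded mice 1701, 2738 and 2913 CPM. The groups did not overlap in either kit, but in 3’-LEXO control mouse 2 lay well below the other control mice, which it did not in Trad-KAPA. Gpx1 fell by 2.38-fold in Trad-KAPA (log2 fold change -1.25 ± 0.18, adjusted p = 0.00581, edgeR) and by 2.32-fold in 3’-LEXO (-1.21 ± 0.30, adjusted p = 0.0452, edgeR). The call in 3’-LEXO was lost without control mouse 1 or 3 or iron-loaded mouse 2 or 3, with adjusted p from 0.0644 to 0.143, while that in Trad-KAPA held without each mouse in turn. Without iron-loaded mouse 1, the lowest of its group, the log2 fold change was -1.11 with Trad-KAPA and -0.997 with 3’-LEXO, which both passed the test.

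Txnrd2 encodes the thioredoxin reductase of mitochondria, and lies on chromosome 16 from 18426384 to 18479073. The control mice had 35.2, 34.4 and 32.2 CPM and the iron-loaded mice 21.7, 23.2 and 21.3 CPM in Trad-KAPA. In 3’-LEXO there were 47.7, 42.3 and 43.1 CPM against 32.4, 29.2 and 34.8 CPM. The groups were apart in both kits. Txnrd2 fell by 1.61-fold in Trad-KAPA (log2 fold change -0.69 ± 0.10, adjusted p = 0.00581, edgeR), and in 3’-LEXO the log2 fold change of -0.52 ± 0.14 did not pass (adjusted p = 0.0569, edgeR). With DESeq2 the 3’-LEXO value passed as well (log2 fold change -0.53, adjusted p = 0.0336).

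Msrb1 encodes a methionine sulfoxide reductase, which repairs oxidized methionine in proteins, and lies on chromosome 17 from 24736642 to 24742778. In Trad-KAPA it had 215, 234 and 275 CPM on the control diet and 138, 197 and 194 CPM on the iron-loaded diet. In 3’-LEXO these were 347, 401 and 395 CPM and 195, 308 and 289.8 CPM. The iron-loaded libraries were lower without overlap in both kits, and iron-loaded mouse 1 lay well below the other 2. The log2 fold change was -0.52 ± 0.19 in Trad-KAPA (adjusted p = 0.0918, edgeR) and -0.58 ± 0.20 in 3’-LEXO (adjusted p = 0.114, edgeR), so that neither passed the test. Without iron-loaded mouse 1 it was -0.34 and -0.39. With no filter on low counts Msrb1 passed in both kits, with adjusted p of 0.0341 in Trad-KAPA and 0.0213 in 3’-LEXO.

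Gpx4, which encodes the glutathione peroxidase that reduces phospholipid hydroperoxides in membranes and so protects cells from ferroptosis, lies on chromosome 10 from 80047166 to 80056439. Its values were 17.4, 18.3 and 22.0 CPM in the control mice and 29.1, 24.3 and 24.4 CPM in the iron-loaded mice in Trad-KAPA. The 3’-LEXO values were 11.3, 13.02 and 14.5 CPM and 24.1, 17.7 and 19.5 CPM. Here the iron-loaded libraries were the higher ones in both kits, again without overlap and with iron-loaded mouse 1 the most extreme. The log2 fold change of 0.35 ± 0.14 in Trad-KAPA (adjusted p = 0.108, edgeR) and 0.59 ± 0.17 in 3’-LEXO (adjusted p = 0.0718, edgeR) did not pass the test. Without iron-loaded mouse 1 they were 0.30 ± 0.13 and 0.48 ± 0.17 and did not pass. The level of Gpx4 is uncertain, because 34.7% of the stretches of 50 bases in its transcripts also occur in 2 other annotated genes, 1 of them the pseudogene Gpx4-ps2, and a read from such a stretch may not map uniquely. In the last 300 bases of its transcript, where 3’-LEXO reads are expected, the share was 98.4%.

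Gpx3 encodes the glutathione peroxidase of plasma, which is made mostly outside the liver, and it lies on chromosome 11 from 54902453 to 54910377. Gpx3 had 7.13, 6.36 and 6.43 CPM in the control mice and 14.2, 7.58 and 8.27 CPM in the iron-loaded mice in Trad-KAPA. In 3’-LEXO it had 3.14, 2.58 and 3.26 CPM against 6.75, 4.38 and 4.36 CPM, from 36 to 88 counts per library. The groups did not overlap, but the value of iron-loaded mouse 1 was far above those of the other 5 mice in both kits. In log2 the fold change was 0.51 ± 0.23 in Trad-KAPA (adjusted p = 0.147, edgeR) and 0.72 ± 0.25 in 3’-LEXO (adjusted p = 0.113, edgeR). Without iron-loaded mouse 1 it was 0.22 ± 0.15 and 0.50 ± 0.26, and it did not pass the test with or without that mouse.

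Selenop, on chromosome 15 from 3268547 to 3280508, had 6942, 7016 and 7514 CPM in the control mice and 7009, 6434 and 6717 CPM in the iron-loaded mice in Trad-KAPA. In 3’-LEXO it had 6536, 8236 and 7366 CPM and 6624, 6035 and 6284 CPM. Libraries of the diets overlapped in both kits. The log2 fold change was -0.16 in Trad-KAPA, with a 95% interval from -0.49 to 0.16 (adjusted p = 0.453, edgeR), and -0.28 in 3’-LEXO, with an interval from -0.70 to 0.13 (adjusted p = 0.374, edgeR). A difference of the size seen for Gpx1 is outside both intervals. All of the stretches of 50 bases in the last 300 bases of Selenop also lie in Ccdc152 on the opposite strand, a gene that had only 4 counts in the 12 libraries.

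Selenof encodes a selenoprotein of the endoplasmic reticulum that takes part in the quality control of glycoproteins, and lies on chromosome 3 from 144570304 to 144597680. It had 97.2, 109.6 and 103 CPM on the control diet and 107, 113 and 116 CPM on the iron-loaded diet in Trad-KAPA. The 3’-LEXO values were 149, 178 and 134 CPM and 122, 165 and 155 CPM. The diets overlapped in both kits, and the log2 fold changes of 0.05 (95% interval -0.20 to 0.30) and -0.11 (-0.49 to 0.28) had opposite signs (adjusted p = 0.781 and 0.742, edgeR).

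**Figure D3:**
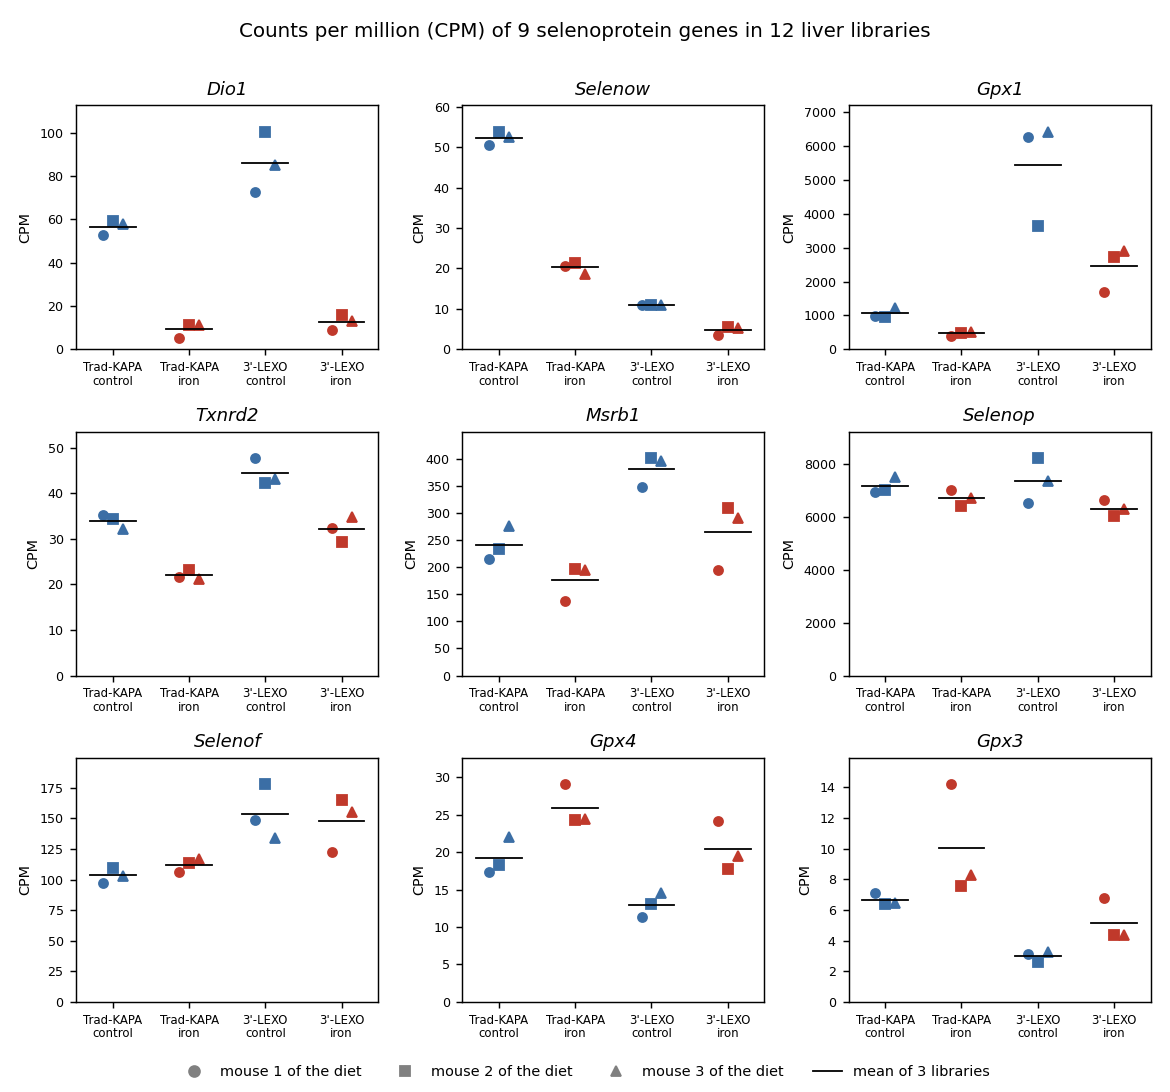
CPM of the 9 genes on the y axis, each panel from 0 on its own scale, in the 4 groups of 3 libraries, with control mice in blue, iron-loaded mice in red, a marker shape per mouse and a line at the mean. The diets do not overlap in either kit for Dio1, Selenow, Gpx1, Txnrd2, Msrb1, Gpx4 and Gpx3, and they overlap in both for Selenop and Selenof.

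In bulk liver, fewer cells of a type and less RNA per cell cannot be told apart. Markers of red cells had lower median sums on the iron-loaded diet in both kits, with ranges that overlapped: the 5 genes Hba-a1, Hba-a2, Hbb-bs, Hbb-bt and Alas2 summed to 20.1 to 151 CPM in the control and 16.4 to 28.8 CPM in the iron-loaded mice in Trad-KAPA, and to 162 to 1214 CPM and 119 to 208 CPM in 3’-LEXO. Of these, 4 could be tested, with log2 fold changes from -2.18 to -1.08 in Trad-KAPA, and 0 passed in edgeR in either kit, while all 4 had an unadjusted p under 0.05 in each and DESeq2 called 1 of them in 3’-LEXO. Markers of Kupffer cells, the macrophages of the liver, had higher sums on the iron-loaded diet, with 5 genes together at 286 to 458 CPM in the control and 515 to 568 CPM in the iron-loaded mice in Trad-KAPA and at 815 to 1060 CPM and 1070 to 1308 CPM in 3’-LEXO. Of the 5, 2 rose in Trad-KAPA, Marco and Vsig4, and Marco alone rose in 3’-LEXO, where Adgre1 had a log2 fold change of -0.31 that did not pass. Clec4f, a defining marker, had log2 fold changes of 0.13 and 0.11 without passing the test, and Marco rose 8.59-fold in Trad-KAPA (adjusted p = 0.00143, edgeR) and 7.06-fold with 3’-LEXO (adjusted p = 0.00233, edgeR). Markers of endothelial cells summed to 293 to 368 CPM in the control and 245 to 265 CPM in the iron-loaded mice in 3’-LEXO, where 1 of 5, Stab2, fell (2 with DESeq2), and their sums overlapped in Trad-KAPA, with 0 of 5 called by edgeR or DESeq2 and 0 at an unadjusted p under 0.05. Markers of lymphocytes summed to 14.7 to 20.96 CPM against 24.3 to 27.2 CPM in Trad-KAPA, where 1 of 5, Ptprc, rose. Of these 5, 2 had a positive and 3 a negative log2 fold change in Trad-KAPA, with a median of -0.25. The sums of lymphocyte markers overlapped in 3’-LEXO, with 0 of 4 tested that passed in edgeR or DESeq2 and 0 at an unadjusted p under 0.05. The sums of 5 stellate cell markers overlapped between the diets in both kits, with 1, Des, lower in Trad-KAPA. The part of these cell types in the values of the 9 genes was not tested.

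To ask whether the diet effect differed between kits, the interaction of diet and kit was tested over the 12 libraries. None of the 9 genes passed, as 0 of 14384 genes did with edgeR (0.0%) and 0 with DESeq2, while 402 genes (2.79%) and 0 of the 9 had an unadjusted p under 0.05. The log2 fold change in 3’-LEXO minus that in Trad-KAPA ranged from -0.16 for Selenof to 0.24 for Gpx4. Its 95% interval ran from -0.19 to 0.51 for Txnrd2, from -0.29 to 0.64 for Selenow, from -0.78 to 0.85 for Gpx1 and from -0.95 to 0.68 for Dio1, in this fit, which leaves out that both libraries of a mouse share their RNA. With the mouse as a block, 5 genes passed the interaction test, and none of the 9 was among them. The intervals were then narrower, from -0.14 to 0.47 for Txnrd2, from -0.23 to 0.57 for Selenow, from -0.29 to 0.39 for Gpx1 and from -0.43 to 0.25 for Dio1. For Txnrd2, which passed the diet test in Trad-KAPA alone, the difference between kits was 0.16 ± 0.16 (SE) and did not pass.

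Beside their response to the diet, the 9 mRNAs differed in how many reads each kit assigned to them. In the same mouse, the CPM of Gpx1 was higher in 3’-LEXO than in Trad-KAPA by 2.35 ± 0.28 on the log2 scale (SD, n = 6 mice), which is 5.08-fold. Selenow was the opposite, with a log2 ratio of -2.19 ± 0.25, or 4.55-fold lower in 3’-LEXO. Gpx3, at -1.04 ± 0.18, and Gpx4, at -0.46 ± 0.14, were also lower in 3’-LEXO. In the last 300 bases of Gpx4, 98.4% of the stretches of 50 bases also occur in other genes. The pseudogene Gpx4-ps2 had 601 counts in 3’-LEXO and 17 in Trad-KAPA, and the part of shared reads in the ratio of Gpx4 was not tested. Msrb1 at 0.62 ± 0.11, Dio1 at 0.56 ± 0.22, Selenof at 0.47 ± 0.18 and Txnrd2 at 0.46 ± 0.16 were higher. Each of these 8 genes kept 1 sign of the ratio in all 6 mice (two-sided exact permutation test by sign flips, p = 0.0313, which is the lowest that 6 mice can give). In edgeR with the mouse as a block, 5 of the 9 were higher and 3 lower in 3’-LEXO, where 42.0% and 41.2% of 13311 genes were, and 83.2% of all genes differed in either direction. At an unadjusted p under 0.05 the shares were 8 of the 9 and 83.9%.

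Selenop gave a similar share of reads in both kits, with a mean log2 ratio of -0.03 ± 0.13 (SD, n = 6 mice, two-sided exact permutation test by sign flips, p = 0.719). The 95% interval of the edgeR estimate ran from -0.12 to 0.10. Only 1 mouse, control mouse 2, had a higher share in 3’-LEXO, with a log2 ratio of 0.23. The other mice had ratios below 0, down to -0.096. By CPM on the control diet, Selenow was the sixth of the 9 in Trad-KAPA, at 52.3 ± 1.62 CPM (SD, n = 3), and the eighth in 3’-LEXO, at 10.9 ± 0.0704 CPM. Selenop and Gpx1 held the first places in 3’-LEXO too, at 7379 ± 850.1 and 5446 ± 1573 CPM.

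**Figure D4:**
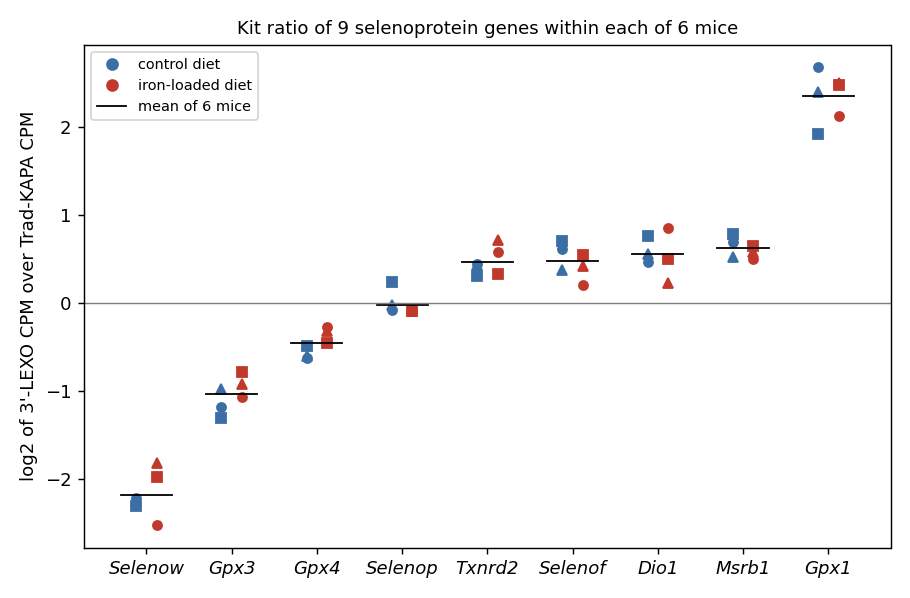
Log2 ratio of 3’-LEXO CPM over Trad-KAPA CPM within each of the 6 mice on the y axis for the 9 genes, with control mice in blue, iron-loaded mice in red and a line at the mean. The 6 mice lie on the same side of 0 for all genes but Selenop, from a mean of -2.19 for Selenow to 2.35 for Gpx1.

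The remaining selenoprotein genes were counted to set the 9 beside their family. Of 15 further genes listed, 13 were in the table and 11 could be tested, and 1 of 11 fell in each kit, with 0 that rose, beside 8.37% and 2.92% of all genes tested that fell (with DESeq2, 2 of the 11 fell in Trad-KAPA and 1 in 3’-LEXO). In Trad-KAPA this was Selenoi, an ethanolamine phosphotransferase of phospholipid synthesis, whose values were 67.9, 94.6 and 99.4 CPM in the control and 61.8, 61.1 and 56.0 CPM in the iron-loaded mice (log2 fold change -0.62 ± 0.16, adjusted p = 0.0335, edgeR). In 3’-LEXO it was Selenoo, a mitochondrial AMP-transferring enzyme, with 70.5, 59.3 and 55.7 CPM against 37.0, 46.6 and 40.8 CPM (-0.63 ± 0.16, adjusted p = 0.0462, edgeR), and its Trad-KAPA value of -0.47 missed the threshold (adjusted p = 0.0544). The median log2 fold change of the 11 was 0.07 with Trad-KAPA and -0.02 with 3’-LEXO. The most abundant of them by CPM, Sephs2, which makes the selenium donor selenophosphate and is itself a selenoprotein, had log2 fold changes of 0.26 ± 0.16 and 0.08 ± 0.20. Selenos, a selenoprotein of the endoplasmic reticulum membrane, had 0.64 ± 0.29 and 0.79 ± 0.31, with 93.5 CPM in iron-loaded mouse 1 of Trad-KAPA and 31.4 to 42.2 CPM in the other 5 mice. Without that mouse its log2 fold changes were 0.17 ± 0.13 and 0.30 ± 0.19. Txnrd1, the cytosolic relative of Txnrd2, had 0.29 ± 0.15 and 0.35 ± 0.19, which did not pass. Of the glutathione peroxidases that use cysteine in place of selenocysteine, Gpx7 alone had enough reads to be tested, at -0.42 ± 0.32 in Trad-KAPA and -0.48 ± 0.31 in 3’-LEXO.

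Among 12 genes of selenium handling and selenocysteine insertion, 11 could be tested, of which 0 passed in Trad-KAPA and 1 rose in 3’-LEXO, with 4 and 2 at an unadjusted p under 0.05, beside 34.3% and 25.0% of all genes, and with 3.17% of all genes that rose in 3’-LEXO. DESeq2 gave the same counts. The gene that rose was Rpl30, a ribosomal protein that also binds the selenocysteine hairpin, at 2.14, 2.22 and 1.70 CPM in the control and 8.13, 4.38 and 4.36 CPM in the iron-loaded mice (log2 fold change 1.42 ± 0.29, adjusted p = 0.0245, edgeR). These levels are low, and Rpl30 was not checked for stretches shared with other genes, whose reads may not map uniquely. With iron-loaded mouse 1 left out the log2 fold change of Rpl30 was 1.07 ± 0.27 (adjusted p = 0.0411, edgeR), and in Trad-KAPA it was 0.76 ± 0.37 with and 0.21 ± 0.23 without that mouse. The most abundant 3 were Sepsecs, the enzyme that completes selenocysteine on its tRNA, at -0.13 ± 0.09 and 0.04 ± 0.20, Scly, which recovers selenium from selenocysteine, at -0.28 ± 0.09 and -0.45 ± 0.14, and Secisbp2l, a relative of the hairpin-binding protein, at 0.31 ± 0.11 and 0.25 ± 0.15 on the log2 scale.

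**Figure D5:**
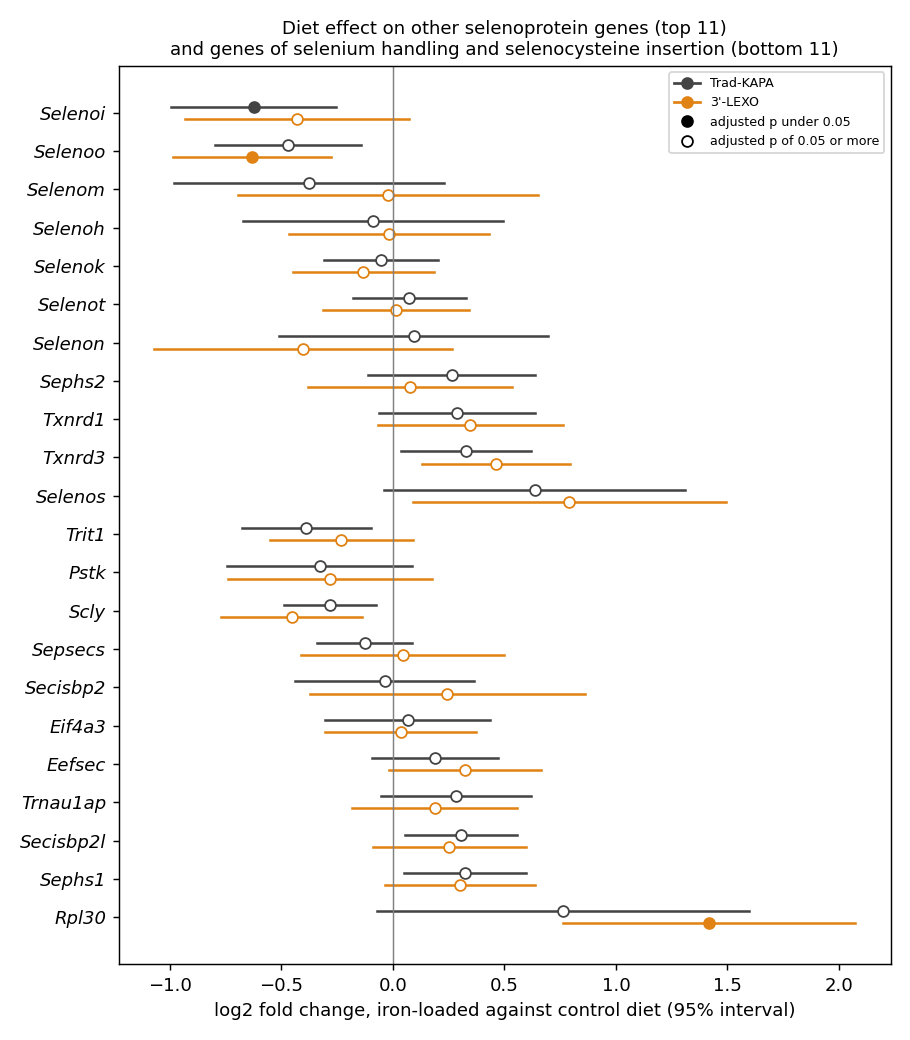
Log2 fold change of the iron-loaded against the control diet on the x axis, with 95% intervals, for 11 other selenoprotein genes (top) and 11 genes of selenium handling and selenocysteine insertion (bottom) in Trad-KAPA (dark) and 3’-LEXO (orange). Filled points, which are Selenoi, Selenoo and Rpl30 in 1 kit each, passed the adjusted p threshold of 0.05.

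Of 12 genes that supply glutathione and thioredoxin or repair methionine beside Msrb1, 1 rose in Trad-KAPA and 0 passed in 3’-LEXO, beside 8.77% of all genes that rose in the former and 6.1% that passed in the latter. In each kit 3 of the 12 had an unadjusted p under 0.05, as did 34.3% and 25.0% of all genes. DESeq2 called 0 with 3’-LEXO and, with Trad-KAPA, 1 higher and 1 lower, Msra (-0.43 ± 0.14, adjusted p = 0.0659, edgeR). The gene that rose was Msrb3, a methionine sulfoxide reductase of the endoplasmic reticulum, at 0.60 ± 0.15 (adjusted p = 0.0291, edgeR) in Trad-KAPA and 0.46 ± 0.19 (adjusted p = 0.176) in 3’-LEXO. Gclc and Gclm, the subunits of the enzyme that limits glutathione synthesis, had log2 fold changes of -0.06 ± 0.29 and 0.02 ± 0.13 in Trad-KAPA, and Txn1, the thioredoxin of the cytosol, had -0.19 ± 0.11.

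For each of the 4 genes that fell, the genes most like it were found by Pearson's r of log2(CPM + 1), centred within each kit, over the 12 libraries and 6719 genes with a mean of at least 10 CPM in each kit. The 12 libraries come from 6 mice and share the diet groups, so r is a description. Dio1 was most like Gas1 (r = 0.993) and Rdh16 (r = 0.991), a retinol dehydrogenase, and Selenow was most like Gas1 as well (r = 0.984) and Fxyd1 (r = 0.983). Of the 2 genes most like Gpx1, Gstt3, a glutathione transferase, had r = 0.982, and Txnrd2 was most like Arap1 (r = 0.969) and AC149090.1 (r = 0.967). Among the 9 genes themselves, Selenow and Dio1 had r = 0.965, Selenow and Txnrd2 had r = 0.944 and Gpx1 and Selenow had r = 0.922. Gpx3 went the other way from Msrb1 (r = -0.955), and Selenof and Dio1 were nearly unrelated (r = 0.045). In both kits iron-loaded mouse 1 had the highest Gpx3 and the lowest Msrb1 of all mice, and r was not computed without it.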

How the data were processed

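Liver RNA of 6 mice was sequenced with both kits. Per the labels, mapping was to GRCm38 and used STAR 2.5.3a. The authors deposited, as raw counts, the uniquely mapped exonic reads per gene. The counting program, its use of strand and the annotation release are not given in the sources used here. Symbols, lengths and selenocysteine codons come from GENCODE M21, where 26949 of the 27022 gene identifiers were found. CPM is the count scaled to the library total, and RPKM divides it by the merged exon length, both computed here from the deposited counts.

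Diets were compared within each kit in R 4.3.3 with the quasi-likelihood test of edgeR 4.0.16 (limma 3.58.1). Normalization was by TMM, low counts were filtered with filterByExpr, and p was adjusted by Benjamini-Hochberg over all genes tested, with a threshold of 0.05. The kit difference was fitted with the mouse as a block, and the interaction of diet and kit without it. DESeq2 1.42.0 was an alternative. Values per mouse were computed in Python 3.11.15 with scipy 1.17.1, pandas 2.3.3 and numpy 2.4.6. The fits were tested on simulated counts. Libraries of both kits that carry 1 number were taken to come from 1 mouse, since each RNA went into both. Deviations from the group means correlated between such libraries with r from 0.444 to 0.770. Between libraries of different mice of a diet, r ran from -0.686 to 0.592. This check could not tell iron-loaded mice 2 and 3 apart. Their r across kits was 0.522 and 0.579 for the same number and 0.592 and 0.520 for the other number.

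The 9 genes and the lists were chosen with earlier results of these data known. The 9 are given in full; of the other lists, genes that passed the test of diet and up to 3 of the highest mean CPM are named, and for each of the 9 that passed, the 2 genes of highest r, of which 1 is not reported here. Replicates are separate mice.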

Additional observations from a re-analysis of the deposited data

How the results depend on the processing

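The 9 genes were refitted within each kit under 12 alternatives. In Trad-KAPA, Dio1, Selenow, Gpx1 and Txnrd2 passed the test under all 12. In 3’-LEXO, Dio1 did. Leaving out 1 mouse at a time gave 841 (without control mouse 2) to 2803 (without iron-loaded mouse 1) genes called in Trad-KAPA against 2255, and 199 (without control mouse 3) to 871 (without iron-loaded mouse 1) in 3’-LEXO against 811; of the 9 genes, 4 passed each time in Trad-KAPA, and 1 to 3 in 3’-LEXO, with 1 left without control mouse 3. In 3’-LEXO, DESeq2 called 1313 genes, and without a filter on low counts 2040 genes passed, 6 of the 9 among them, with Gpx4 at an adjusted p of 0.0490 and Txnrd2 at 0.0296. Without that filter 7 genes passed the interaction test, and with the mouse as a replicate block 5 did. The causes were not tested. The median level of the 9 genes within a Trad-KAPA library, averaged over the libraries of both diets, was 24.0 RPKM. With the length of the longest transcript it was 33.1 RPKM.

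Replicate numbers do not name pairs across diets, with deviations correlating at r of -0.021 to 0.068 for Trad-KAPA and -0.168 to 0.100 for 3’-LEXO. With the replicate number as a block, 1922 genes passed in Trad-KAPA, and 5 of the 9 with Msrb1 gained (adjusted p = 0.0468, edgeR); in 3’-LEXO 436 genes passed, and 2 of the 9 with Gpx1 lost (adjusted p = 0.0857, edgeR). Without the mouse as a block, 10307 genes differed between the kits against 11070.

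Signs changed for values near 0 when 1 mouse was left out. The log2 fold change of Selenof ranged from -0.0089 (without control mouse 1) to 0.12 in Trad-KAPA, and from -0.22 to 0.026 (without iron-loaded mouse 1) in 3’-LEXO. The difference of the diet effect between kits ranged from -0.10 (without control mouse 2; -0.038 without iron-loaded mouse 3) to 0.23 for Gpx1, and from -0.14 to 0.0011 (without control mouse 2) for Msrb1. The kit difference of Selenop ranged from -0.051 to 0.0078 (without iron-loaded mouse 2). Gpx3 and Selenow rested on few reads in 3’-LEXO, from 36 to 88 and from 47 to 155 counts per library.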
